A study of Homo sapiens with 12 samples.

Results

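HepG2 cells in which CPSF6 had been silenced by siRNA were followed from 3 to 6 h in actinomycin D, and the 2 libraries taken at 6 h were compared with the 2 taken at 3 h. These are 4 of the 12 libraries of the series. All 12939 of 22148 listed genes whose deposited normalized count averaged at least 20 over the 12 libraries were tested, once with the counts as deposited and once after each library was divided by its summed spike-in counts. HepG2 is a human line that was grown from a liver tumour and keeps many hepatocyte functions.

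Cells received siRNA against CPSF6 (siCPSF6) or a control siRNA (siNC) and were grown for 48 h before actinomycin D was added at 5 µg/ml, with collection at 0, 3 and 6 h. Each of the 6 groups had 2 biological replicates, and the labels name 1 line and no separate clones. Synthetic ERCC spike-in RNA was put into 5 µg of total RNA from each sample before mRNA libraries were made, so a spike-in scaled value is a level per mass of total RNA. In these bulk samples fewer cells of a kind and less RNA per cell cannot be told apart.

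CPSF6 is the larger partner of NUDT21 in cleavage factor Im, which binds UGUA in new transcripts and favours cleavage and polyadenylation at sites downstream of it. Actinomycin D sits in DNA and stops RNA polymerases, so that an mRNA already made is no longer replaced and its level falls at a pace set by its own decay. Short-lived mRNAs, such as those of immediate early genes with AU-rich 3′ UTRs, are lost first, whereas mRNAs of ribosomal and secreted plasma proteins are among the slowest to go.

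CPSF6 (ENSG00000111605.18, chr12:69239537-69274358, plus strand, hg38) had normalized counts of 810 and 732 in the siCPSF6 libraries at 6 h and of 674 and 801 at 3 h. The siNC libraries had 3469 and 3443 at 6 h and 3389 and 3309 at 3 h, so the silenced libraries lay below all control libraries. The 2 siCPSF6 groups overlapped, with a log2 change of 0.07 ± 0.09 (SE; adjusted p = 0.578, limma with Benjamini-Hochberg adjustment over all genes tested, as for every adjusted p that follows).

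The counts of a library summed to 33352246 and 32668837 in siCPSF6 at 6 h and to 28180129 and 27642662 at 3 h, within a range of 19133288 to 33352246 over all 12 libraries. These are sums after scaling by the authors and not read depths. All 8 hepatocyte markers were tested, from HNF4A with 2285 to 2929 to ALB with 225826 to 303682 over the 4 libraries. Of 14 markers of fibroblasts, endothelium and blood cells, 10 were listed and 7 reached a mean of 20, with COL3A1 at 1 or 2, VWF at 0 to 3 and CDH5 at 3 to 5, but PDGFRB at 299 to 763, CD68 at 1017 to 1471 and LYZ at 8770 to 18837. CD68 alone of these 7 passed the test between the 2 times (log2 change 0.51), and the part of such transcripts in any result was not tested.

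Counts set to equal upper quartiles cannot show a loss that all mRNAs share, so the number of higher and lower genes depends on the scale. As deposited, 4408 genes passed an adjusted p of 0.05 (34.1% of those tested). Of these 2867 were higher at 6 h (22.2%) and 1541 were lower (11.9%), and the median gene had a log2 change of 0.13. The summed spike-in counts were themselves 0.33 higher at 6 h on the log2 scale, with the 36 spike-ins that averaged at least 100 ranging from 0.12 to 0.70. After spike-in scaling the median moved to -0.20 and 2475 genes passed (19.1%), of which 2461 were lower at 6 h (19%) and 14 were higher (0.108%).

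All 1541 genes that were lower as deposited were also lower on the spike-in scale, and 1353 of them were lower in the deposited TPM table as well. Of the 2867 that were higher as deposited, 13 stayed higher on the spike-in scale, 187 were higher in TPM and 6 were lower in TPM. Spike-in scaling lowers every gene of the step by the 0.33 given above, so that losses stay lower and gains lose their call by the construction of the scale, and the step lies lower in TPM as well. In TPM 2360 genes passed (18.2%), with 199 higher (1.54%), 2161 lower (16.7%) and a median of -0.14. Scaling to the median ratio of genes above 0 in every library gave 3669 genes (28.4%), of which 1784 were higher (13.8%) and 1885 lower (14.6%). Because of this, medians of gene groups are given below relative to the median gene of the same scale, and "lower" and "higher" refer to the counts as deposited unless the scale is named. Spike-in and median-ratio scaling divide each library by a constant. A relative median is therefore nearly the same on those scales and as deposited by construction, and only TPM is another measure. Counts of list members as deposited are to be read beside 22.2% higher and 11.9% lower over all genes tested. For the same step, counts on the spike-in scale are to be read beside 0.108% higher and 19% lower. Counts in TPM are to be read beside 1.54% higher and 16.7% lower.

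With spike-in scaling the median gene kept 87.3% of its 3 h level at 6 h. This value rests on the 2 siCPSF6 libraries at 3 h, whose summed spike-in counts differed by 0.37 on the log2 scale, against 0.09 between the 2 libraries at 6 h. Without replicate 1 at 3 h the median gene kept 76.7% and 4831 genes passed, and without replicate 2 at 3 h it kept 98.2% and 1070 passed. Spike-in scaled calls that follow share this limit.

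**Figure D1:**
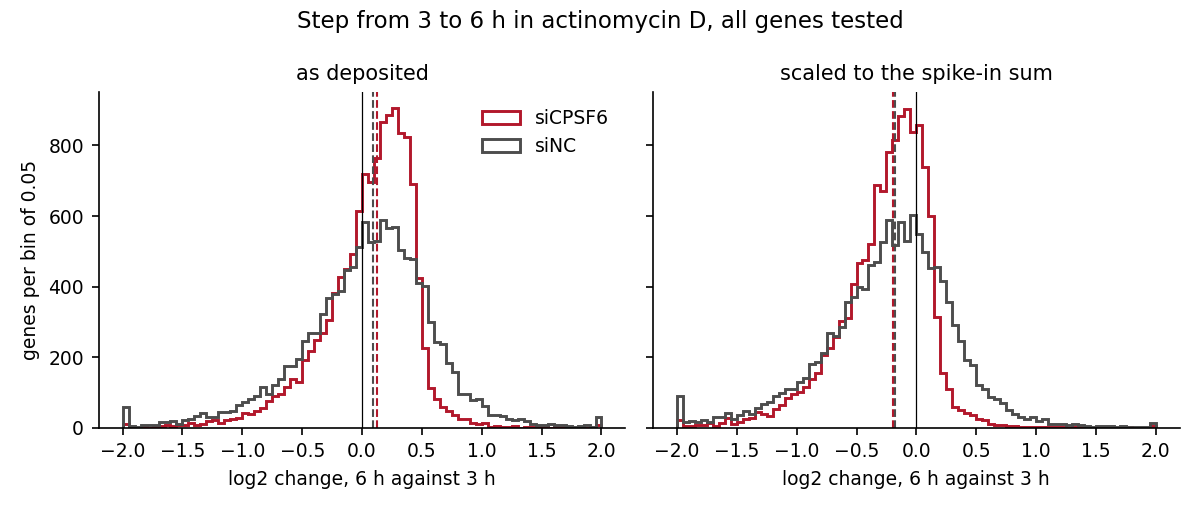
Number of genes per bin of 0.05 against the log2 change from 3 to 6 h, for siCPSF6 (red) and siNC (grey), as deposited (left) and spike-in scaled (right). Dashed lines mark the median gene, at 0.13 and -0.20 in siCPSF6. Changes beyond 2 in either direction are drawn in the outermost bins, which hold 15 siCPSF6 and 75 siNC genes on the left. The siCPSF6 histogram is the narrower one.

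The 15 largest losses among genes with a mean of at least 100 are given by known role. The roles were read after the values and were not tested as groups. Both libraries at 6 h lay below both at 3 h in all 1541 genes that were lower as deposited, and in 2798 of the 12939 genes tested. A gap between the 2 groups therefore does not set the genes below apart from other lower genes. BAMBI, a decoy receptor that dampens TGF-β and BMP signals (chr10:28677342-28682939, plus strand, hg38), had normalized counts of 558 and 614 at 0 h, 66 and 38 at 3 h and 8 and 3 at 6 h. Its log2 change was -3.09 ± 0.45 (SE, adjusted p = 0.000296), and 9.9% of the 3 h level was left after spike-in scaling. Both libraries at 6 h were far below both at 3 h, at counts low enough for a few reads to matter.

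Some of the 15 encode proteins of ribosome assembly. ZNF622, which acts in the last steps of large ribosomal subunit assembly, had 41 and 73 at 6 h and 193 and 229 at 3 h (log2 change -1.92). NOP16, a nucleolar protein, had 66 and 146 at 6 h and 335 and 364 at 3 h (-1.82), and UTP14A of the small subunit processome had 81 and 152 at 6 h and 351 and 326 at 3 h (-1.60). RIOK2, a kinase needed for the final maturation of the small subunit, had 36 and 52 at 6 h and 138 in both libraries at 3 h (-1.65). Like all genes lower as deposited, these 4 had no library at 6 h within the range of the libraries at 3 h.

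Several of the 15 act with RNA polymerase II. LEO1, a subunit of the PAF1 complex that travels with RNA polymerase II, had 78 and 89 at 6 h and 302 and 246 at 3 h (log2 change -1.70, adjusted p = 1.29e-06). IWS1, which rides with the same polymerase through SPT6, had 165 and 163 at 6 h and 571 and 492 at 3 h (-1.69, adjusted p = 8.16e-07). CTDP1, the phosphatase that resets the tail of RNA polymerase II, had 76 and 58 at 6 h and 193 and 223 at 3 h (-1.63), and MED18 of the Mediator had 42 and 49 at 6 h and 136 and 137 at 3 h (-1.57). In these 4 no library at 6 h came near the level of 3 h. TFPT, a subunit of the INO80 chromatin remodeller, fell by 1.61, and for each of the 5 genes 24.7% to 27.1% of the 3 h level was left on the spike-in scale.

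The rest of the 15 had varied roles. FADD, the adaptor of death receptors, had 34 and 37 at 6 h and 111 and 128 at 3 h (-1.72). NET1, an exchange factor for RhoA, had 161 and 191 at 6 h and 542 and 601 at 3 h (-1.70). Both lost most of what the 3 h libraries held. DBR1, which opens intron lariats, had 31 and 45 at 6 h and 119 and 118 at 3 h (-1.64). HAMP, which encodes the iron hormone hepcidin, had 1271 and 1373 at 0 h, 234 and 214 at 3 h and 56 and 89 at 6 h (-1.65), and NDC80 of the kinetochore fell by 1.61. In none of the 15 did the 2 groups overlap, which held for every gene that was lower as deposited.

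**Figure D2:**
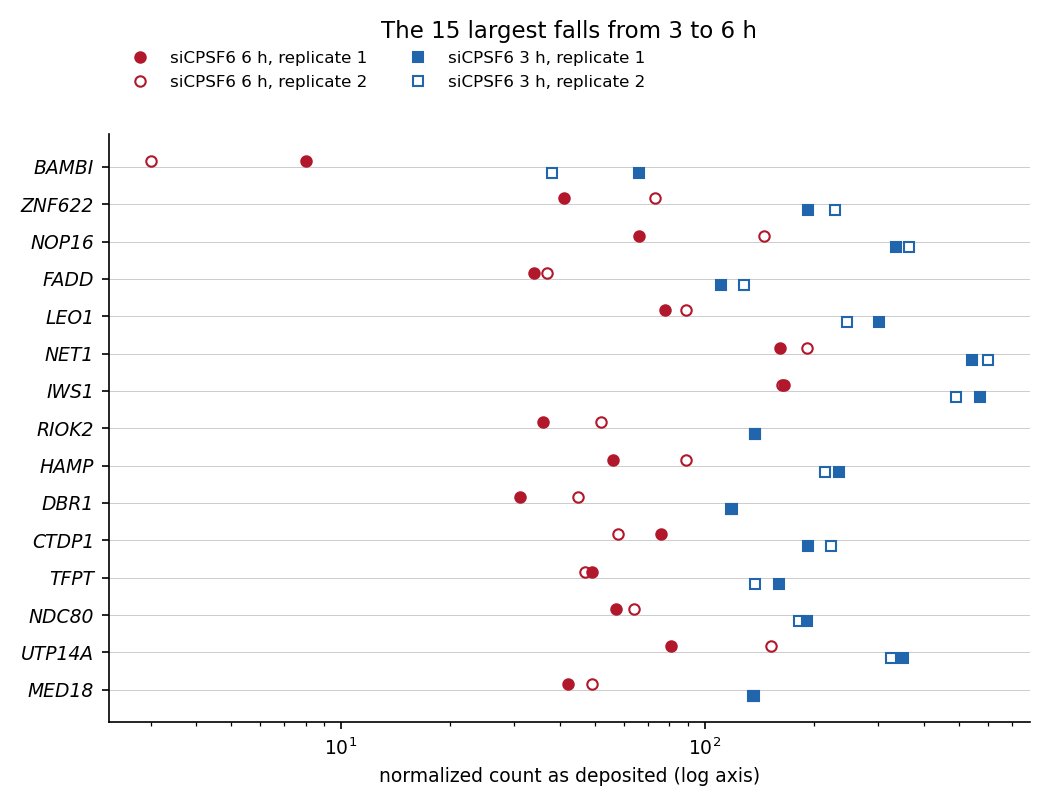
Normalized counts as deposited (log axis) of the 15 genes with the largest losses, in the siCPSF6 libraries at 6 h (red circles) above those at 3 h (blue squares), with filled symbols for replicate 1 and open symbols for replicate 2. All circles lie left of the squares of their gene, and BAMBI is farthest apart, with 8 and 3 against 66 and 38.

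Cleavage factor Im and its partners did not move as one. Of 25 genes for 3′ end processing 8 were lower at 6 h and 10 were higher, with a median 0.03 below the median gene, and in TPM 9 were lower and none higher. CLP1, a kinase subunit of cleavage factor IIm, had 59 and 78 at 6 h and 195 and 203 at 3 h (log2 change -1.54). FIP1L1, which links poly(A) polymerase to the cleavage complex, had 36 and 45 at 6 h and 89 and 124 at 3 h (-1.36). CSTF1 had 252 and 364 at 6 h and 611 and 587 at 3 h (-0.98), and CPSF3, the endonuclease that cuts the transcript, had 633 and 576 at 6 h and 905 and 941 at 3 h (-0.61). These 4 were lower on all 3 scales.

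NUDT21, the partner of CPSF6, had 5723 and 6128 at 6 h and 4740 and 4977 at 3 h, and CPSF7, which can stand in for CPSF6 in the complex, had 1498 and 1434 at 6 h and 1128 and 1199 at 3 h. As deposited both were higher (log2 changes 0.29 and 0.33), but after spike-in scaling they were at -0.04 and 0.01 with adjusted p-values of 0.916 and 0.988, and NUDT21 turned to -0.24 in TPM. PABPC1, which coats poly(A) tails, was higher as deposited (0.50) and had 0.18 on the spike-in scale (adjusted p = 0.418). Without replicate 1 at 6 h the number of higher genes in this list was 5.

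Mitochondrially encoded mRNAs, which are copied as long transcripts from the circular genome of the mitochondrion and cut apart, were mostly lower and by very different amounts. Of 13 genes 10 were lower and none was higher. The median was 0.54 below the median gene as deposited and 0.53 below it in TPM. The spike-in scale had 12 lower and TPM all 13.

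MT-ND1, a core subunit of complex I, had counts of 22858 and 18492 at 6 h and 49753 and 42477 at 3 h (log2 change -1.16 ± 0.10, SE, adjusted p = 7.42e-06). MT-ND2 of the same complex had 21315 and 19629 at 6 h and 44715 and 45857 at 3 h (-1.15 ± 0.07, adjusted p = 9.55e-08). MT-CYB, the complex III subunit cytochrome b, had 22657 and 24765 at 6 h and 44151 and 45306 at 3 h (-0.92 ± 0.07, adjusted p = 1.68e-06). Of their 3 h levels 35.7%, 36% and 42.3% were left on the spike-in scale.

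The mRNAs of complex IV and MT-ND4 of complex I were steadier, whereas MT-ND5, MT-ND3 and MT-ND4L of complex I had larger losses. MT-CO1, the catalytic subunit of cytochrome c oxidase, had 666935 and 665173 at 6 h and 595005 and 633645 at 3 h, a log2 change of 0.12 that did not pass (adjusted p = 0.234), and 86.5% was left. MT-CO2 had 159815 and 162619 at 6 h and 165600 and 176780 at 3 h (-0.09, adjusted p = 0.339), and MT-ND4 had -0.13 (adjusted p = 0.127, and 0.0108 with the replicate number as a block). MT-CO3 (-0.30), MT-ATP8 (-0.23) and MT-ATP6 (-0.20) passed with small losses, MT-ND5 fell by 0.41, MT-ND3 by 0.60 and MT-ND4L by 0.78. MT-ND4L overlaps MT-ND4 on the same strand, and MT-ATP8 overlaps MT-ATP6, which overlaps MT-CO3, so reads of these pairs could be shared.

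MT-ND6 is the mRNA that is read from the other strand of the mitochondrial genome. It had 1933 and 1765 at 0 h, 39 and 30 at 3 h and 14 and 24 at 6 h, so nearly all of it was gone before the 3 h libraries were taken. Its step from 3 to 6 h was -0.86 ± 0.28 (SE, adjusted p = 0.0307) and its step from 0 to 3 h was -5.71. MT-CYB and MT-ND2 also fell in both steps, whereas MT-ND4L had 0.49 and MT-ATP6 had 0.39 from 0 to 3 h as deposited. On the spike-in scale the highest early change among the 13 was -0.04. There 8 of them were lower at 3 h and none higher, beside 4973 lower and 381 higher of 12939 genes tested. The 2 steps share the 3 h libraries and are given side by side only. Leaving out 1 of the 4 libraries left 7 or 8 mitochondrial mRNAs lower.

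**Figure D3:**
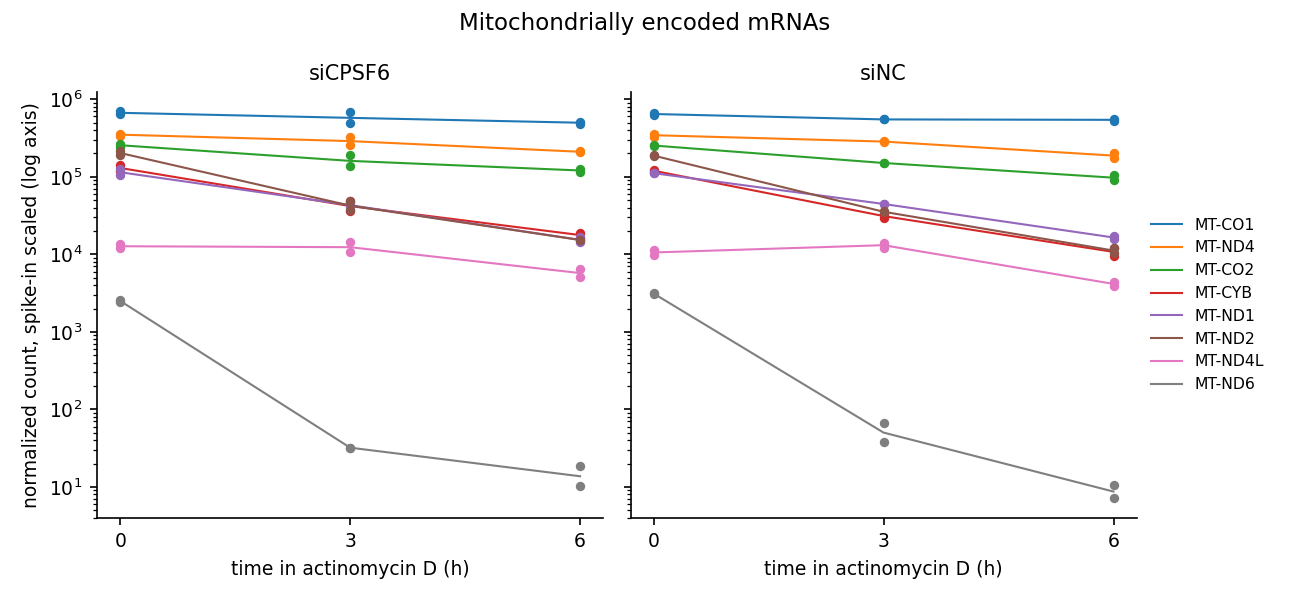
Spike-in scaled counts (log axis) of 8 mitochondrially encoded mRNAs at 0, 3 and 6 h in actinomycin D, in siCPSF6 (left) and siNC (right). Points are libraries and lines join the geometric means of the 2 replicates. MT-CO1 stays nearly level, MT-ND1, MT-ND2 and MT-CYB go down in both steps, and MT-ND6 drops mostly before 3 h.

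Genes of the later cell cycle lost more than the median gene. Of 42 genes of G2 and mitosis 23 were lower and 3 were higher, beside 11.9% and 22.2% of all genes tested. Their median was 0.51 below the median gene as deposited and on the spike-in scale and 0.42 below it in TPM. In siNC 25 of the 42 were lower and 3 higher over the same hours, beside 19.3% and 29.1% of all genes tested. The median difference between the arms was 0.00, so this loss was not particular to silenced cells. PLK1, a kinase that drives entry into mitosis, had 1217 and 1288 at 6 h and 3257 and 3389 at 3 h (log2 change -1.41). CCNB1, the cyclin of CDK1, had 1032 and 1164 at 6 h and 2738 and 2891 at 3 h (-1.36 ± 0.10, SE, adjusted p = 1.49e-06), with 31.1% left on the spike-in scale. TTK, the spindle checkpoint kinase, had 122 and 111 at 6 h and 290 and 296 at 3 h (-1.32), and AURKA had 743 and 713 at 6 h and 1508 and 1359 at 3 h (-0.97). The groups were apart for all 4, as for every gene that was lower as deposited.

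The 3 that were higher as deposited were FOXM1 (0.33), a transcription factor for mitotic genes, MAD2L1 (0.35) of the spindle checkpoint and BIRC5 (0.35), which encodes survivin. On the spike-in scale they stood at 0.00, 0.02 and 0.03 and none passed. Between 21 and 22 of the 42 genes were lower without any 1 of the 4 libraries, but on the spike-in scale the 29 lower genes became 39 without replicate 1 at 3 h and 16 without replicate 2 at 3 h. Of 39 genes of G1/S and DNA replication 10 were lower and 11 higher as deposited, 12 lower and none higher on the spike-in scale, and 14 lower and none higher in TPM. The origin factor CDC6 (-1.40) and the histone mRNA binder SLBP (-1.09) were the lowest of these, and CDK4 (0.39) was the highest. Without replicate 2 at 6 h or replicate 1 at 3 h the number of higher genes among the 39 was 3 and 4.

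Among transcripts of the decay machinery itself more were lower than higher. Of 56 genes 20 were lower and 3 were higher, 0.30 below the median gene at the median on the deposited and spike-in scales and 0.26 below it in TPM. EXOSC9, a subunit of the RNA exosome, had 129 and 131 at 6 h and 239 and 362 at 3 h (log2 change -1.17). SMG8, which regulates the kinase of nonsense-mediated decay, had 157 and 125 at 6 h and 269 and 255 at 3 h (-0.90). DDX6, a helicase that couples decapping to translation, had 798 and 839 at 6 h and 1327 and 1215 at 3 h (-0.63). The exonuclease XRN1 (-0.43) and CNOT1 (-0.39), the scaffold of the main deadenylase, passed with smaller losses.

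The 3 that were higher were SMG5 (0.40), PAN2 (0.32) and UPF3B (0.36), which were at 0.07, -0.00 and 0.03 on the spike-in scale and did not pass there. Without replicate 1 at 3 h 12 of the 56 genes were lower. In siNC cells 19 of the 56 were lower and 9 higher over the same hours, beside 19.3% and 29.1% of all genes tested.

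Immediate early and AU-rich mRNAs had mostly reached low levels before 3 h. Of 43 genes tested 41 were lower at 3 h than at 0 h (22.9% of all genes tested were), with a median log2 change of -2.43, and from 3 to 6 h 8 were lower and 4 were higher, beside 11.9% and 22.2% of all genes tested. On the spike-in scale 13 were lower and none higher over the later hours, and in TPM 8 were lower and none higher. The median of the later step was 0.15 below the median gene as deposited and in TPM and 0.14 below it on the spike-in scale. NFKBIA, the inhibitor of NF-κB, had 1899 and 2320 at 0 h, 44 and 51 at 3 h and 45 and 64 at 6 h. DUSP1, a phosphatase of MAP kinases, had 273 and 236 at 0 h, 24 and 13 at 3 h and 22 and 13 at 6 h. ID1 had 10092 and 9723 at 0 h, 1206 and 959 at 3 h and 1134 and 1125 at 6 h. For these 3 the libraries at 3 and 6 h overlapped and the later step did not pass (adjusted p-values of 0.658, 0.909 and 0.72).

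Other members went on falling. ID2, which blocks DNA binding by helix-loop-helix factors, had 5096 and 5807 at 0 h, 530 and 614 at 3 h and 217 and 215 at 6 h (log2 change of the later step -1.40, adjusted p = 1.97e-06). RHOB, a small GTPase with a short-lived mRNA, had 643 and 638 at 6 h and 1687 and 1413 at 3 h (-1.27, adjusted p = 5.79e-07). MYC had 5448 and 4714 at 0 h, 328 and 233 at 3 h and 214 and 166 at 6 h, and its later step of -0.55 ± 0.19 (SE) passed narrowly (adjusted p = 0.045), with -0.87 on the spike-in scale (adjusted p = 0.000232). CCN2, a matrix protein, had 488 and 292 at 6 h and 1374 and 764 at 3 h (-1.44), with uneven replicates.

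A few members were higher at 6 h as deposited. JUN had 225 and 205 at 6 h and 176 and 158 at 3 h (0.36, adjusted p = 0.0491), and KLF6 had 877 and 764 at 6 h and 583 and 644 at 3 h (0.42). MAFK (0.42) and TNFAIP3 (0.31), which ends NF-κB signalling, completed the 4, and none of them passed on the spike-in scale. The number of lower members in this list was 2 without replicate 1 at 3 h, and the number of higher members was 1 without replicate 1 at 6 h or replicate 1 at 3 h.

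AU-rich elements in the 3′ UTR, built on a nonamer of U and A, are the sites at which ZFP36 family proteins recruit deadenylases. That nonamer, written TTATTTATT with T for U, was searched on the sense strand of the longest annotated 3′ UTR of each gene (GENCODE release 29, hg38), where overlapping matches were counted. It was present in 8.96% of 11679 tested genes with such a UTR. It was present in 12 of the 43 listed immediate early and AU-rich genes, namely in 1 of 8 that were lower from 3 to 6 h, in 2 of 4 that were higher and in 9 of 31 that did not pass. The sequences that follow have the nonamer in capitals and 10 bases on each side, and are sites of 2 genes outside the list that fell from 3 to 6 h (HAMP, PPM1D), of 1 member that fell (DUSP8), of 2 members that did not pass after a steep early loss (DUSP1, ZFP36) and of 1 that was higher (TNFAIP3). They show each kind of late step beside the same element.
HAMP: cctcccttccTTATTTATTcctgctgccc
PPM1D: tgagtgtattTTATTTATTtattattttg
DUSP8: tttcgattttTTATTTATTtaagctgttc
DUSP1: gggctggtccTTATTTATTtaacttcacc
ZFP36: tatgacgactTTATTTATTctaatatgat
TNFAIP3: gtaattcactTTATTTATTttattacaaa

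All 6 sequences are from GENCODE release 29 on hg38 and are written 5′ to 3′ as in the mRNA, with T for U. They lie at chr19:35285067-35285095 (HAMP, plus strand), chr17:60664780-60664808 (PPM1D, plus strand), chr11:1556374-1556402 (DUSP8, minus strand), chr5:172768643-172768671 (DUSP1, minus strand), chr19:39409196-39409224 (ZFP36, plus strand) and chr6:137882298-137882326 (TNFAIP3, plus strand), each within the annotated 3′ UTR. PPM1D, a p53-induced phosphatase, had 88 and 107 at 6 h and 184 and 172 at 3 h (log2 change -0.87), and DUSP8 had 108 and 59 at 6 h and 152 and 123 at 3 h (-0.77). ZFP36, which binds this element in other mRNAs, had 36 and 32 at 6 h and 29 and 41 at 3 h (-0.02, adjusted p = 0.955). The same 9 bases thus stood in UTRs of mRNAs that fell, were level or were higher in this step. A match is a description of the sequence and not of a site in use.

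Over all genes the nonamer was not more common among the late losses. It was in 3.47% of the 173 genes that were lower by at least 1 on the log2 scale from 3 to 6 h, whose median UTR was 672 bases, and in 8.38% of all 1503 lower genes. It was in 6.52% of 2731 higher genes, and in 11.95% of 1247 genes that were lower by at least 1 from 0 to 3 h, whose median UTR was 1517 bases. The median UTR over all 11679 genes was 1324 bases, and a shorter UTR has fewer places for a match. Per kilobase of UTR there were 0.038 nonamers in the 173 genes, of which only 6 had a match. There were 0.074 per kilobase in the 1247 early losses and 0.062 over all genes.

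Genes of the unfolded protein and integrated stress response took both directions. Of 31 genes 4 were lower and 17 were higher, 0.19 above the median gene at the median as deposited, 0.18 on the spike-in scale and 0.23 in TPM, and on the spike-in scale 7 were lower and none higher. XBP1, the transcription factor that IRE1 activates by splicing, had 5660 and 5605 at 0 h, 596 and 632 at 3 h and 229 and 209 at 6 h. Its later step was -1.48 ± 0.08 (SE, adjusted p = 9.55e-08). TRIB3, a target of ATF4 and CHOP, had 499 and 455 at 6 h and 1042 and 1055 at 3 h (-1.14, adjusted p = 1.49e-06), and HERPUD1, which serves degradation at the endoplasmic reticulum, fell by 0.44. The chaperones CALR (0.48) and HSPA5 (0.38) were higher as deposited and had 0.15 and 0.05 on the spike-in scale, where neither passed.

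Of 28 genes that NRF2 switches on 5 were lower and 13 higher as deposited. On the spike-in scale 7 were lower and none higher, and in TPM 8 were lower and 2 higher. GCLC, the catalytic subunit of the enzyme that starts glutathione synthesis, had 364 and 384 at 6 h and 817 and 860 at 3 h (log2 change -1.16). OSGIN1 had 25 and 29 at 6 h and 70 and 61 at 3 h (-1.25). FTL, the ferritin light chain, had 498952 and 513178 at 6 h and 335694 and 361493 at 3 h (0.54), and NQO1, a quinone reductase, had 19325 and 20488 at 6 h and 16440 and 17556 at 3 h (0.23, adjusted p = 0.014). The 2 enzymes of glutathione and quinone reduction thus differed in direction as deposited, and NQO1 turned to -0.10 on the spike-in scale (adjusted p = 0.752).

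Of 26 genes of cholesterol synthesis 5 were lower and 12 higher as deposited, with a median 0.06 above the median gene. On the spike-in scale 7 were lower and none higher, and in TPM 8 were lower and none higher, so the direction of most calls depended on the scale. SQLE, which makes the epoxide of squalene, had 2300 and 2003 at 6 h and 5178 and 4876 at 3 h (-1.23). MSMO1 had 7295 and 7065 at 6 h and 6040 and 5842 at 3 h (0.27), with -0.05 on the spike-in scale. The number of higher genes as deposited was 6 without replicate 1 at 3 h and 7 without either library at 6 h.

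Aminoacyl-tRNA synthetases and proteasome subunits had a few clear losses each. RARS1, which charges arginine tRNA, had 537 and 619 at 6 h and 1373 and 1481 at 3 h (log2 change -1.30), and TARS1 had 1031 and 1060 at 6 h and 2006 and 1946 at 3 h (-0.92). In all 5 of 23 synthetases were lower and 9 were higher as deposited, 6 were lower and none higher on the spike-in scale and 8 were lower and none higher in TPM, and the 9 became 3 without replicate 2 at 6 h or replicate 1 at 3 h. Of 34 proteasome genes 9 were lower and 10 higher as deposited, 12 lower and none higher on the spike-in scale, 16 lower and none higher in TPM, and 9 lower and 4 higher with median-ratio scaling. The median was 0.14 below the median gene as deposited and on the spike-in scale and 0.11 below it in TPM. The lower ones included the base ATPases PSMC2 (-0.73) and PSMC6 (-0.64) and the lid peptidase PSMD14 (-0.59), and the higher ones as deposited the core subunits PSMB3 (0.33) and PSMB4 (0.32). The 10 became 2 without replicate 1 at 3 h and 3 without replicate 2 at 6 h.

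Secreted plasma proteins, the main products of hepatocytes, lay above the median gene. Of 38 genes 29 were higher as deposited and none was lower, beside 22.2% and 11.9% of all genes tested. Their median was 0.29 above the median gene as deposited and in TPM. On the spike-in scale none passed in either direction and the median was 0.09. Among all genes averaging 10000 or more, 75.9% were higher and 3.72% lower, and the part of abundance in this list was not tested. ALB, the gene of serum albumin, had 296106 and 303682 at 6 h and 225826 and 244386 at 3 h (log2 change 0.35, and 0.03 on the spike-in scale). TTR, which carries thyroxine, had 2524 and 2805 at 6 h and 1719 and 1873 at 3 h (0.57), and the fibrinogen genes FGA (0.48), FGB (0.55) and FGG (0.44) were likewise higher. All of these had both libraries at 6 h above both at 3 h as deposited, as did 5628 of the 12939 genes tested.

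Cytosolic ribosomal proteins and the nuclear subunits of the respiratory chain were also mostly higher as deposited, beside 22.2% of all genes tested. The part of abundance in this was not tested. Of 79 ribosomal protein genes 71 were higher as deposited and none was lower, 0.23 above the median gene as deposited and on the spike-in scale and 0.27 above it in TPM. RPLP0 had 117803 and 116896 at 6 h and 85600 and 88290 at 3 h (0.43), and RPL3 had 101668 and 97407 at 6 h and 75616 and 72764 at 3 h (0.42). None of the 79 passed on the spike-in scale, where the median was 0.04, and in TPM 27 were higher and 1 was lower. Of 77 nuclear respiratory chain genes 56 were higher and none lower, with COX6A1 (0.62) and COX8A (0.61) of cytochrome c oxidase leading, and the 56 became 33 without replicate 2 at 6 h and 34 without replicate 1 at 3 h. On the spike-in scale none of the 77 was higher, 1 was lower and the median was -0.03, and in TPM 11 were higher and 2 lower. The median of the nuclear genes was 0.17 above the median gene as deposited and on the spike-in scale and 0.22 above it in TPM.

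Of 22 glycolysis genes 9 were higher and none lower (GAPDH 0.44, PFKL 0.41), and the 9 became 4 without replicate 1 at 6 h and 5 without replicate 2 at 3 h. Spike-in scaled, none was higher and 2 were lower, and in TPM none was higher and 1 was lower. For these lists too, 22.2% of all genes tested were higher and 11.9% lower as deposited. Of 23 coagulation genes 12 were higher and none lower, and of 26 snoRNA host genes 17 were higher and none lower (SNHG21 0.61, SNHG32 0.57), with 11 without replicate 1 at 6 h or replicate 1 at 3 h. Spike-in scaled, no coagulation gene passed, and among the snoRNA hosts none was higher and 2 were lower. Hepatocyte transcription factors leaned the other way, with 6 of 25 lower and 2 higher. CEBPA had 225 and 243 at 6 h and 443 and 583 at 3 h (-1.12), GATA4 fell by 0.79, and HNF4A had 0.23 as deposited and -0.10 on the spike-in scale.

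**Figure D4:**
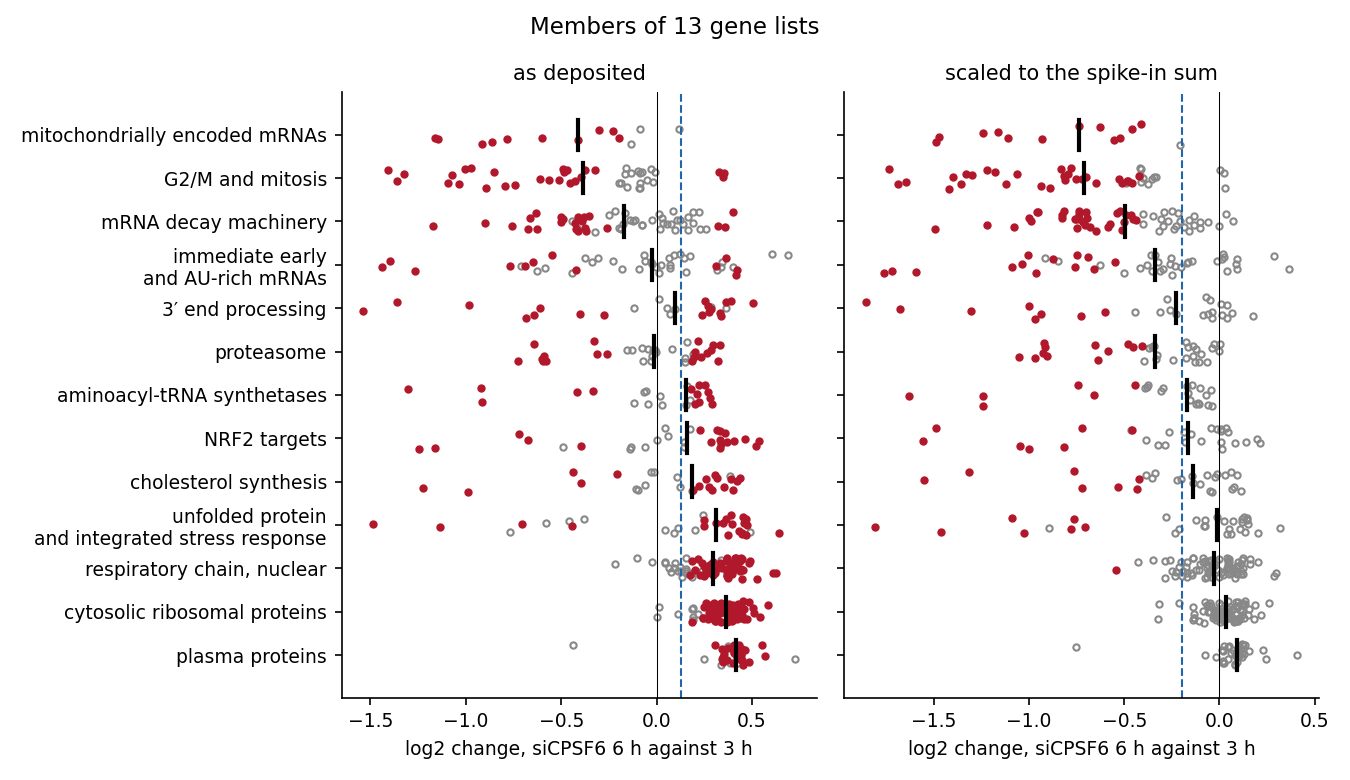
Log2 change from 3 to 6 h in siCPSF6 of every tested member of 13 gene lists, as deposited (left) and spike-in scaled (right). Filled red points passed an adjusted p of 0.05, open grey points did not, black bars are the medians of the lists and the dashed blue line is the median gene (0.13 and -0.20). The medians of mitochondrially encoded and G2/M mRNAs lie to the left of the line, and those of plasma and ribosomal protein mRNAs to its right. Their distance from the line is nearly the same in both panels by construction.

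Most zinc finger genes were already lower at 3 h than at 0 h. Of 400 genes named ZNF 240 were lower and 39 higher from 0 to 3 h, beside 22.9% and 43.6% of all genes tested, and 19 were lower and 61 higher from 3 to 6 h, beside 11.9% and 22.2%, with a late median 0.08 above the median gene as deposited and on the spike-in scale and 0.05 above it in TPM. Over the later step 36 of the 400 were lower and none higher on the spike-in scale, beside 19% and 0.108% of all genes tested. In TPM 20 were lower and 2 higher, beside 16.7% and 1.54%. Without any 1 of the 4 libraries their median late log2 change as deposited was 0.16 to 0.22, beside 0.21 with all libraries. The remaining lists had calls in both directions or nearly none. Of 30 p53 targets 5 were lower and 3 higher, of 41 SR proteins and hnRNPs 7 were lower (PCBP1 -0.65, TRA2B -0.64) and 11 higher (HNRNPA2B1 0.48), of 17 clock genes 1 was higher, and of 7 replication-dependent histone genes none passed. Of 105 noncoding RNAs named LINC 3 were lower and 6 higher, and of 187 antisense RNAs 4 were lower and 13 higher. None of the 7 small nucleolar RNAs listed reached a mean of 20.

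Abundance went with the share of genes that passed. Among 349 genes that averaged 10000 or more, 75.9% were higher and 3.72% lower as deposited, and the median was 0.04 on the spike-in scale. Among 6308 genes with a mean of 100 to 1000, 12.6% were higher and 16.4% lower, and the median was -0.28 on the spike-in scale. Among 2394 genes with a mean of 20 to 100, 4.3% were higher and 3.01% lower. Of 401 pseudogenes 14.5% were higher and 1.25% lower, against 23.3% and 12.9% of 11726 protein-coding genes.

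Few genes rose against the spike-ins. UPK3BL1 had 243 and 241 at 6 h and 110 and 91 at 3 h, a log2 change of 1.27 as deposited and 0.94 on the spike-in scale (adjusted p = 0.000361). CHKB-CPT1B, a read-through of 2 genes, had 136 and 137 at 6 h and 97 and 39 at 3 h (1.14, and 0.81 on the spike-in scale with an adjusted p of 0.0175), and was 0.49 and did not pass as deposited without replicate 2 at 3 h. FAM156B had 1158 and 970 at 6 h and 739 and 429 at 3 h, which passed on the spike-in scale (0.59, adjusted p = 0.0133) and with the replicate block (0.91, adjusted p = 0.000237) but not as deposited without it (adjusted p = 0.0591). In both genes the 2 libraries at 3 h were far apart. There were also pseudogenes of SMG1, the kinase of nonsense-mediated decay. SMG1P4 had 399 and 413 at 6 h and 179 and 184 at 3 h (1.16, and 0.83 on the spike-in scale with an adjusted p of 0.0181), and SMG1P1 had 1735 and 1660 at 6 h and 856 and 944 at 3 h (0.92, and 0.59 with an adjusted p of 0.00975). SMG1P3 had 2941 and 2927 at 6 h and 1645 and 1888 at 3 h (0.73), and did not pass on the spike-in scale (0.41, adjusted p = 0.0714). The SMG1 copies are near-identical to each other and to SMG1, so the counting could have split reads among them.

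JRKL, FGFBP3 and CTBS were also among the 15 largest rises as deposited (log2 changes 0.98, 0.88 and 0.80), and none of the 3 passed on the spike-in scale. Of the nuclear noncoding RNAs, MALAT1 had 4370 and 5222 at 6 h and 3257 and 3085 at 3 h (0.59, adjusted p = 0.00117), and NEAT1, the scaffold of paraspeckles, had 8046 and 9097 at 6 h and 6010 and 7254 at 3 h, which did not pass (0.37, adjusted p = 0.278). Neither passed after spike-in scaling (0.27 and 0.05).

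The step of siCPSF6 cells was tested against that of siNC cells in the same fit. As deposited 1981 genes differed between the arms (15.3%), 1015 with a more positive step in siCPSF6 (7.84%) and 966 with a more negative one (7.47%). After spike-in scaling 604 differed (4.67%), 263 with a more positive step (2.03%) and 341 with a more negative one (2.64%), and 580 genes passed on both scales. The median difference on the spike-in scale was -0.05. It was -0.23 without siCPSF6 replicate 1 at 3 h and 0.13 without siCPSF6 replicate 2 at 3 h. Without siNC replicate 1 at 6 h it was -0.14, and without siNC replicate 2 at 6 h it was 0.04. The balance of directions on that scale thus turned on single libraries. With the replicate number as a block the counts were 3189 as deposited (24.6%) and 1492 on the spike-in scale (11.5%). No label pairs the libraries, and this block rests on the values alone. In 1579 of the 1981 genes the siCPSF6 step was the smaller one in size and in 402 it was the larger one, and the SD of the step over all genes was 0.388 in siCPSF6 and 0.562 in siNC. In siNC 6271 genes passed between 3 and 6 h (48.5%). On the spike-in scale 834 of 12939 genes were higher at 6 h in siNC and 3390 lower, beside 14 and 2461 in siCPSF6. Of those higher genes 143 in siNC and 7 in siCPSF6 had a log2 change of at least 1. The control libraries at 6 h thus held many gains against the spike-ins during the block of transcription, and their cause was not tested.

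The genes with the largest positive differences were higher or did not pass in siCPSF6 as deposited, and fell in siNC. SLC6A12, a betaine transporter, had 200 and 220 at 6 h and 163 and 193 at 3 h in siCPSF6, and 48 and 40 at 6 h and 406 and 352 at 3 h in siNC. Its steps were 0.24 and -3.08, a difference of 3.32 ± 0.23 (SE, adjusted p = 3.73e-07). PHLDA3, a p53 target that restrains AKT, had 680 and 820 at 6 h and 897 and 906 at 3 h in siCPSF6, and 123 and 175 at 6 h and 988 and 1098 at 3 h in siNC (difference 2.55). As deposited neither step passed in silenced cells, and both genes lost most of their 3 h level in control cells. The siCPSF6 step of PHLDA3 did pass with the replicate number as a block (-0.27, adjusted p = 0.0246) and on the spike-in scale (-0.60, adjusted p = 0.0421). FAM120A, an RNA-binding scaffold, had 4270 and 3622 at 6 h and 3414 and 2977 at 3 h in siCPSF6, and 823 and 721 at 6 h and 3368 and 3208 at 3 h in siNC (2.40, adjusted p = 5.64e-08). GM2A, the activator of ganglioside breakdown, had 2963 and 3414 at 6 h and 2248 and 2400 at 3 h in siCPSF6, and 746 and 849 at 6 h and 2677 and 2908 at 3 h in siNC (2.26). Among these libraries of PHLDA3, FAM120A and GM2A, the control libraries at 6 h were the ones that stood apart. For SLC6A12 the control libraries at 3 h also lay above those of siCPSF6.

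TRPV4 (2.45), NIPSNAP2 (2.34) and PTGDR2 (3.00) belonged to the same end, with the siCPSF6 step of NIPSNAP2 passing under the block (0.27, adjusted p = 0.0172) and with the difference of PTGDR2 missing the threshold on the spike-in scale (adjusted p = 0.0556). TPM4, a tropomyosin, stood at the other end, with 14579 and 14449 at 6 h and 11638 and 12036 at 3 h in siCPSF6, and 17992 and 17525 at 6 h and 3734 and 3984 at 3 h in siNC. Its steps were 0.29 and 2.20, a difference of -1.91 ± 0.09 (SE, adjusted p = 8.4e-09). CHST14, which sulfates dermatan, had 2225 and 2064 at 6 h and 1721 and 1549 at 3 h in siCPSF6, and 1304 and 1270 at 6 h and 239 and 233 at 3 h in siNC (-2.05). TPM4 and CHST14 passed as gains in siCPSF6 too as deposited (0.29 and 0.39). NTN4 (-2.08), PRMT6 (-1.98) and UGT1A1 (-2.55) had no passing change in siCPSF6 as deposited, beside a gain in siNC at 6 h, and PRMT6 passed as a loss in siCPSF6 on the spike-in scale (-0.56, adjusted p = 0.0372). The gains of these genes in siNC were 2.20, 2.44, 2.25, 1.74 and 3.02 on the log2 scale. After spike-in scaling they were 1.93, 2.17, 1.98, 1.47 and 2.75.

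Other genes lost RNA in siCPSF6 and had no passing step in siNC as deposited. BAMBI had a step of -3.09 in siCPSF6 and of -0.05 in siNC, where it had 320 and 350 at 0 h, 5 and 15 at 3 h and 9 and 8 at 6 h (difference -3.04, adjusted p = 0.00599). DBR1 (difference -1.61), MED18 (-1.50), CTDP1 (-1.32) and RIOK2 (-1.29) had the same form, with siNC libraries at 3 h already near their level at 6 h, but on the spike-in scale the siNC steps of CTDP1 (-0.58, adjusted p = 0.0373) and RIOK2 (-0.62, adjusted p = 0.033) passed as losses. MED18 had 41 and 42 at 6 h and 49 and 39 at 3 h in siNC, and DBR1 had 38 and 36 at 6 h and 31 and 46 at 3 h. CCDC71 (-2.30) passed too, at 7 and 24 at 6 h and 36 and 44 at 3 h in siCPSF6. DUS2 had 106 and 96 at 6 h and 180 and 212 at 3 h in siCPSF6, and 385 and 366 at 6 h and 182 and 182 at 3 h in siNC (-1.99), so the arms moved in opposite directions.

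HAMP and ID2 fell in both arms and by less in siCPSF6. HAMP had a step of -1.65 in siCPSF6, against -3.46 in siNC with counts of 14 and 27 at 6 h and 194 and 259 at 3 h (difference 1.81, adjusted p = 0.0225), and on the spike-in scale the difference of 1.74 had an adjusted p of 0.0918. ID2 had a step of -1.40 in siCPSF6 and of -2.75 in siNC (difference 1.36). CEBPA differed by 1.56, with -1.12 in siCPSF6 and -2.67 in siNC, and by 1.501 on the spike-in scale, which did not pass (adjusted p = 0.254). RHOB lost more in siCPSF6, with -1.27 beside -0.48 in siNC (difference -0.79).

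**Figure D5:**
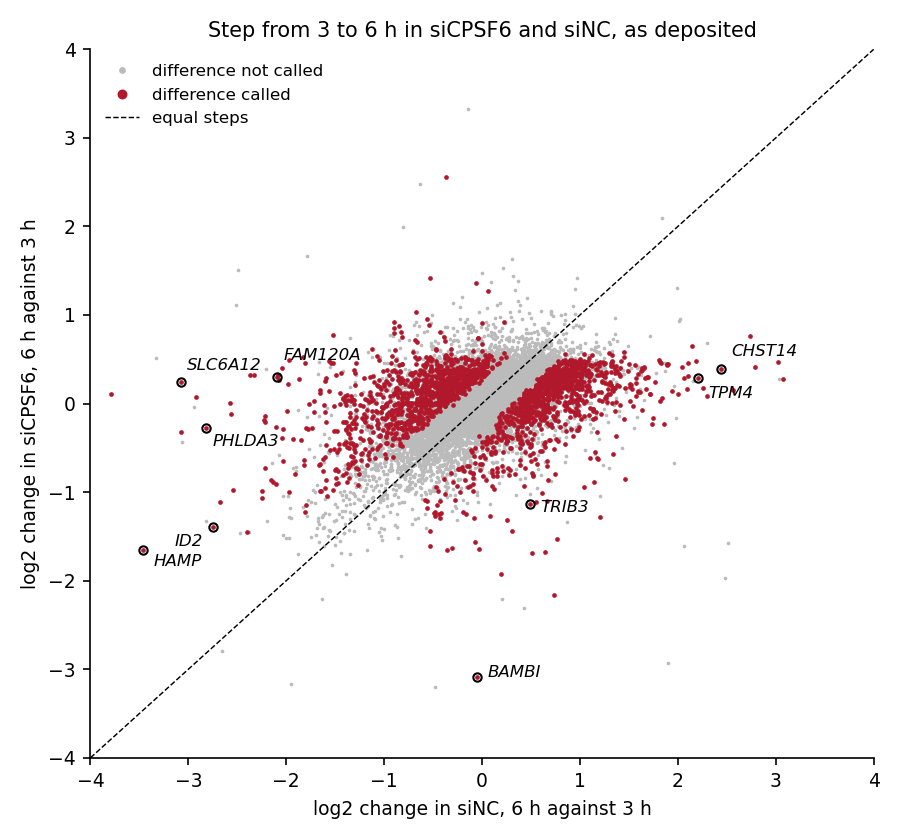
Log2 change from 3 to 6 h in siCPSF6 (vertical axis) and siNC (horizontal axis) for all genes tested, as deposited. Red points have a difference between the arms that passed an adjusted p of 0.05, the dashed line marks equal steps and 3 genes lie outside the axes. The cloud is wider along the siNC axis, and SLC6A12, FAM120A and TPM4 lie near 0 on the siCPSF6 axis.

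Stress response genes differed mostly in 1 direction. Of 31 genes of the unfolded protein and integrated stress response 12 had a more negative step in siCPSF6 and 1 a more positive one. Over all genes tested 7.47% and 7.84% did. The median difference was -0.34 beside 0.00 over all genes. On the spike-in scale the counts were 7 and 0, beside 2.64% and 2.03% of all genes tested. TRIB3 fell by 1.14 in siCPSF6 and gained 0.49 in siNC, with 405 and 357 at 6 h and 259 and 283 at 3 h there (difference -1.62 ± 0.13, SE, adjusted p = 1.33e-06). ASNS, which makes asparagine, had 991 and 887 at 6 h and 914 and 822 at 3 h in siCPSF6, and 2828 and 2165 at 6 h and 782 and 722 at 3 h in siNC (-1.60). HSPA5 gained in both arms, by 0.38 in siCPSF6 and 0.90 in siNC (-0.52, adjusted p = 0.00459), and the spike-in scale gave -0.57 (adjusted p = 0.0513). HERPUD1 was the member with the more positive step (0.54).

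Of 23 aminoacyl-tRNA synthetases 10 had a more negative step in siCPSF6 and none a more positive one, beside 7.47% and 7.84% of all genes tested. On the spike-in scale 4 had a more negative step, beside 2.64% of all genes tested. KARS1 had 2611 and 2830 at 6 h and 2575 and 2799 at 3 h in siCPSF6, and 6724 and 7010 at 6 h and 3626 and 3787 at 3 h in siNC (difference -0.87), and AARS1 differed by -0.82. SLC7A11, the cystine importer, had 863 and 906 at 6 h and 807 and 793 at 3 h in siCPSF6, and 1403 and 1242 at 6 h and 364 and 324 at 3 h in siNC (-1.80, adjusted p = 9.85e-07). Of 6 metallothioneins 3 had a more negative step in siCPSF6, namely MT1G (-2.79), MT1E (-1.71) and MT2A (-0.89), whose siNC steps were 3.07, 1.63 and 1.32. These genes thus gained during the late hours in control cells and were closer to level in silenced cells. The cause of the gains in control cells was not tested.

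Liver products and other lists differed gene by gene. Of 38 plasma proteins 9 had a more positive step in siCPSF6 and 4 a more negative one, beside 7.84% and 7.47% of all genes tested. On the spike-in scale the counts were 3 and 4, beside 2.03% and 2.64%. APOC3 (difference 1.12), VTN (1.03) and HP (1.0), which encode an apolipoprotein, vitronectin and haptoglobin, gained as deposited in siCPSF6 and fell in siNC. FGG (-1.12), FGA (-0.94), FGB (-0.78) and TTR (-0.72) gained in both arms and by more in siNC. BIRC5 (1.19), MAD2L1 (0.75) and MSMO1 (1.11) were higher as deposited in siCPSF6 and fell in siNC. SQLE differed by 0.58, FTL by 0.44 and NQO1 by 0.34, and on the spike-in scale they differed by 0.53, 0.39 and 0.28, which did not pass (adjusted p-values of 0.171, 0.273 and 0.54). Of 79 ribosomal proteins none passed for a difference on either scale, and with the replicate block 1 had a more positive and 4 a more negative step as deposited. At an unadjusted p under 0.05 3802 of all genes tested did as deposited.

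Among mitochondrially encoded mRNAs 4 of 13 had a more positive step in siCPSF6 and none a more negative one, beside 7.84% and 7.47% of all genes tested. With the replicate block 9 had a more positive step (12.4% of all genes tested did). MT-ND6 differed by 1.30 (adjusted p = 0.0431), at counts of 10 and 13 at 6 h and 74 and 40 at 3 h in siNC. MT-ND4L differed by 0.60 (adjusted p = 0.00388), MT-CYB by 0.35 (adjusted p = 0.0364) and MT-ATP8 by 0.33 (adjusted p = 0.0429). On the spike-in scale MT-ND6 alone passed (1.23, adjusted p = 0.0408). NUDT21 differed by 0.53 (adjusted p = 0.000935) and CPSF3 by -0.64 (adjusted p = 0.00653), and on the spike-in scale the differences of 0.48 and -0.69 did not pass (adjusted p-values of 0.231 and 0.0935). CPSF6 itself did not pass for a difference in its step (0.02, adjusted p = 0.93).

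The apparent length of a gene's transcripts, taken as the ratio of its deposited count to its deposited TPM and centred on the median gene of each library, changed for few genes. Of 10542 genes 15 passed (0.142%), 10 with longer (0.0949%) and 5 with shorter apparent transcripts (0.0474%) at 6 h, and 1319 had an unadjusted p under 0.05. MAGI2-AS3 had 510 and 462 counts at 6 h and 432 and 424 at 3 h, but 11.8 and 10.2 TPM at 6 h and 21.2 and 20.5 TPM at 3 h, which gave a log2 length change of 0.84 ± 0.09 (SE, adjusted p = 0.0423). TRMT1L (0.83), DCUN1D1 (0.73), BHLHE40 (0.62) and SLC46A1 (0.32) were also longer, and METTL15 (-0.62), MACROD1 (-0.40), AKAP8 (-0.38), EHD1 (-0.32) and AATF (-0.24) were shorter. No gene passed with the replicate block or in a fit of the 4 libraries alone, and the cause was not tested. In siNC 362 genes passed over the same hours (3.43%), and the difference between the arms passed for 4 genes (0.0379%), EHD1 and AATF among them.

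Several genes named above overlap an annotated neighbour on the same strand, read from whole gene spans with introns included. Where exons overlap too, which was not checked gene by gene, the counting could have assigned reads of one to the other. UGT1A1 shares its later exons with the rest of its cluster, and RPL3, SNHG21, SNHG32, UPK3BL1, NEAT1, MALAT1, CNOT1, XRN1, HERPUD1, NIPSNAP2, AATF, ASNS, CALR, CDK4, CLP1, COX6A1, COX8A, CPSF7, CTBS, DCUN1D1, DUS2, FIP1L1, GCLC, HNF4A, MACROD1, METTL15, OSGIN1, PABPC1, PAN2, PHLDA3, PSMC2, PSMD14, PTGDR2, RIOK2, SMG8, VTN, CHKB-CPT1B and CD68 overlap another gene. Whether the counting used the strand is not given in the sources used here, and an annotated gene lies on the opposite strand of others, among them CPSF6, NUDT21, NQO1, ID2, CEBPA, LEO1, IWS1, CTDP1, NOP16, UTP14A, FADD, NDC80, TFPT, PLK1, MAD2L1, SLC6A12, FAM120A, GM2A, TRPV4, TPM4, NTN4, SLC7A11, KARS1, AARS1, HP and MAGI2-AS3. The part of shared reads in these values was not tested.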

How the data were processed

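The authors deposited 1 table of gene counts scaled to equal upper quartiles and rounded, used here as a score, and 1 TPM table over genes and spike-ins together, for 12 libraries in 6 groups of 2. STAR, RSEM and build hg38 are named per the submitters' processing notes, and their versions, the annotation and the strand setting were not given in the sources used here. Upper quartiles of the deposited counts are 660.5 or 661 in every library, so depth is unknown, and tests for raw counts were not run. Of 22148 genes 22069 carry a symbol, 21694 are in GENCODE release 29, and every column was mapped (0 unmapped). 

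Genes with a mean count of at least 20 were fitted with limma 3.58.1 (R 4.3.3, trend and robust) on log2(value + 1), with 6 group means over the 12 libraries and Benjamini-Hochberg adjustment at 0.05. The same fit was run after division by the summed spike-in counts, on TPM + 0.1, and on log2(count / TPM) centred per library for genes with a mean of at least 100. Fold changes on these scales understate the change of low genes. The fits were tested on simulated data. Tables and figures were made with Python 3.11.15, numpy 2.4.6, pandas 2.3.3 and matplotlib 3.10.9.

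The 2 replicates of a group had correlations of 0.9911 to 0.9931, and their counts differed beyond sampling noise (5.96 to 15.69 as a chi-square divided by its degrees of freedom). Nothing in the labels says that the replicates came from separate cultures beyond the word biological, so p-values measure the spread between these samples. Replicates of the same number deviated together (correlations of 0.11 to 0.24 over 15 pairs of groups, 0.24 for the 2 groups of the step). No label gives a shared day or batch, so this pairing rests on the values.

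Genes and lists were chosen with earlier results of these data known. The rule took CPSF6, NUDT21, CPSF7, MYC, NQO1, ALB, NEAT1 and MALAT1, the 15 largest gains and losses among passing genes that average 100 or more and carry no clone name, the 8 largest each way on the spike-in scale and for the difference between arms, the 5 largest each way in apparent length, and up to 3 members of each list with the smallest p. Some genes it takes are not reported, and other named genes were chosen after their values were seen. Alternatives were pseudocounts of 0.1 and 10, no minimum or 100, the TPM table, median-ratio scaling, limma without trend and robust, a replicate block, only the libraries compared, and each library left out.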

Additional observations from a re-analysis of the deposited data

Results flagged for a closer look

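For 63 genes named above, the log2 change from 3 to 6 h in siCPSF6 cells differed from that in siNC cells by limma's test of the difference (siCPSF6 minus siNC, counts as deposited, 2 libraries a group, adjusted p under 0.05 over all genes tested). They are given here as values.

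The more positive steps in siCPSF6 were those of SLC6A12 (3.32), PTGDR2 (3.00), PHLDA3 (2.55), TRPV4 (2.45), FAM120A (2.40), NIPSNAP2 (2.34), GM2A (2.26), HAMP (1.81), CEBPA (1.56), ID2 (1.36), MT-ND6 (1.30), UPK3BL1 (1.20), BIRC5 (1.19), EHD1 (1.19), APOC3 (1.12), MSMO1 (1.11), VTN (1.03) and HP (1.0). Below 1 were SMG1P3 (0.78), MAD2L1 (0.75), SMG1P1 (0.69), PCBP1 (0.64), MT-ND4L (0.60), SQLE (0.58), HERPUD1 (0.54), NUDT21 (0.53), FTL (0.44), SLC46A1 (0.43), MT-CYB (0.35), NQO1 (0.34) and MT-ATP8 (0.33).

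The more negative steps in siCPSF6 were those of BAMBI (-3.04), MT1G (-2.79), UGT1A1 (-2.55), CCDC71 (-2.30), NTN4 (-2.08), CHST14 (-2.05), DUS2 (-1.99), PRMT6 (-1.98), TPM4 (-1.91), SLC7A11 (-1.80), MT1E (-1.71), TRIB3 (-1.62), DBR1 (-1.61), ASNS (-1.60), MED18 (-1.50), CTDP1 (-1.32), RIOK2 (-1.29), FGG (-1.12), OSGIN1 (-1.08) and TFPT (-1.08). Above -1 were FGA (-0.94), MT2A (-0.89), KARS1 (-0.87), AARS1 (-0.82), RHOB (-0.79), FGB (-0.78), AATF (-0.77), TTR (-0.72), CPSF3 (-0.64), PFKL (-0.57), HSPA5 (-0.52) and PSMD14 (-0.51). Groups of 2 libraries are too small for a check of single libraries against the rest of their group.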

How the results depend on the processing

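For the 151 named genes, 3167 of the recomputed log2 changes kept their direction and their side of the threshold, 239 no longer passed, 38 newly passed and 25 turned round, all of these 25 in TPM or after spike-in scaling. Turned round were AARS1 (-0.067 and -0.066 in TPM, -0.125 spike-in scaled), HNF4A (-0.16 and -0.15 in TPM, -0.10 spike-in scaled), NQO1 (-0.034 in TPM with either pseudocount, -0.10 spike-in scaled), NUDT21 (-0.24 in TPM, -0.04 spike-in scaled), MAGI2-AS3 (-0.92 and -0.87 in TPM), SLC46A1 (-0.55 and -0.46 in TPM) and MT-CO1 (-0.145 in TPM with either). Spike-in scaled, FAM120A (-0.023), MACROD1 (-0.005), MSMO1 (-0.052), PAN2 (-0.003), PSMB4 (-0.004), TNFAIP3 (-0.014) and TPM4 (-0.031) turned round too. The cause was not tested. The replicate block added calls for BHLHE40 (-0.55, adjusted p = 0.0203), DCUN1D1 (-0.28, adjusted p = 0.0298), FAM156B (0.91), MT-ND4 (-0.13), NIPSNAP2 (0.27) and PHLDA3 (-0.27), and changed no other call among the 151.

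Of the counts of genes that passed, the siCPSF6 step as deposited had 4408, against 2360 and 2302 in TPM with pseudocounts of 0.1 and 1, 5520 with the replicate block and 3002 to 4718 without 1 library. The spike-in scaled step had 2475, against 1122 with only its own libraries, 3593 with the block and 1070 to 4831 without 1 library, where 1319 passed without siCPSF6 replicate 1 at 6 h. The difference between the arms had 1981, against 979 and 933 in TPM, 3189 with the block and 1437 to 1896 without 1 library. Its spike-in scaled form had 604, against 394 with no minimum, 222 and 206 in TPM, 255 without trend and robust, 1492 with the block and 413 to 1344 without 1 library, the highest without siCPSF6 replicate 1 at 3 h. Apparent length had 15, against 0 with the block, 0 with only its own libraries, 7741 without centring and 0 to 537 without 1 library, with 537 without siCPSF6 replicate 2 at 6 h, 5 without replicate 1 at 3 h, 0 without either siCPSF6 library at 0 h and 1 without either siNC library at 0 h. The other alternatives stayed within 1.5 times these counts.

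The spike-ins went into a fixed mass of total RNA, so a loss of mRNA per cell is seen only as far as total RNA held. Depth is unknown, and for genes with low counts small differences between the arms were not detectable.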
